A study of Mus musculus with 3 samples.

Results

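The coats that move proteins between the endoplasmic reticulum (ER) and the Golgi, with the receptors that load their cargo, were followed across 3 cell populations of the injured mouse pancreas. They comprised 38 genes of the 21150 named genes on the array, chosen by name for their place in this transport: 12 COPII coat genes, 9 COPI coat genes, 2 ARF GTPases, 9 Tmed receptors, 3 KDEL receptors, Lman1 with its partner Mcfd2, and the SNARE Sec22b. The rule of choice used no measured value, but the choice was made with earlier results of these data known. Probes were assigned through the RefSeq accession in the scanner tables, which gave 56 probes. Of the genes, 21 had 1 probe, 16 had 2 and 1 had 3.

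The tissue was frozen pancreas of 3 wild-type mice, 48 h after pancreatitis was induced with caerulein, a peptide that overstimulates acinar cells. Laser microdissection gave the groups, which shared genotype, treatment and time: ADM (acinar-to-ductal metaplasia, acinar cells taking on duct features), duct, and acinar. Strain, age and sex are not given in the sources used here, nor whether the mice were pooled for an array, and no uninjured group was analysed here. Each group had 1 Agilent 1-colour array, so differences have no replicate check, no test between groups was possible and no p-value is given.

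In COPII transport the GTPase Sar1 recruits the Sec23-Sec24 cargo adaptor and then the Sec13-Sec31 cage at ER exit sites that Sec16 organises. COPI coats, recruited by ARF GTPases, carry escaped ER proteins and cycling receptors back from the Golgi. Tmed (p24) proteins and the Lman1-Mcfd2 complex span or bind the vesicle membrane and select cargo, and KDEL receptors return ER chaperones. Acinar cells export large amounts of digestive enzymes by this route, and in mice loss of Sec23b is known to damage the pancreas.

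A level below is the log2 processed signal of the gene's brightest probe minus the 75th percentile of that array, so that 0 is the percentile itself. Levels are set side by side for the same probe only, because probes of different genes differ in brightness. A difference is the first array minus the second in log2 units, and genes are counted at 2-fold. Where a probe was not well above background on 1 of the 2 arrays, the difference is a bound. The number of arrays limits the precision, and the spots of one probe on one array differed by a median SD of 0.11 (ADM), 0.0896 (duct) and 0.122 (acinar) over 432 probes with repeated spots, which covers spotting and scanning alone.

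The arrays were unequal in brightness. The 75th percentile was an intensity of 72.2 on the ADM array, 95.7 on duct and 35.2 on acinar, and 27676, 27849 and 22654 of 55664 probes were well above background. All 10 acinar markers were well above background on all 3 arrays, with a summed scaled signal of 7610 (ADM), 1370 (duct) and 22200 (acinar), and 9 were at least 2-fold lower in ADM than in acinar. Of 9 duct markers, 8, 8 and 6 were well above background on ADM, duct and acinar, with sums of 43.2, 108 and 18.7, and Cftr was above it on none. Macrophage markers (9) summed to 270, 60.3 and 76.0 and fibroblast markers (9) to 322, 285 and 78.8, and in 7 and 8 of them ADM exceeded acinar at least 2-fold. Endothelial markers (5) summed to 12.0, 14.5 and 14.1 and islet markers (5) to 1110, 623 and 724. The plasma cell list (5) summed to 1.28, 0.488 and 7.66, and its markers Mzb1 and Tnfrsf17 were above background on no array. Derl3, with an acinar level of 2.81, was the only gene of this list above background on acinar. Cd79a was above it on ADM but not on acinar. For ADM minus acinar, the median difference was −1.83 over the acinar list and −1.24 over the 2 plasma cell genes compared. It was positive over the duct (1.31), macrophage (1.74), fibroblast (2.54) and islet (0.81) lists, and over the endothelial list. The transport genes described next had a median of −0.77 in that comparison. The part of these cell types in the transport gene differences was not tested. In dissected tissue, fewer cells of a type and less RNA per cell cannot be told apart.

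Transport genes were detected more often than most. Of the 38, 34 (89.5%) were well above background on all 3 arrays, against 9539 of the 21150 named genes (45.1%). Kdelr3 was above background on no array and was not compared. Sec24b was not above it on acinar, and the probes standing for Copg1 and Copg2 were above it on acinar alone.

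The ADM array read lower than the acinar array for much of this machinery. Of 37 genes compared, 15 were at least 2-fold lower in ADM (40.5%), 3 were higher (8.11%) and 19 lay within 2-fold. Over the 13632 named genes compared in the same way, 22.0% were lower and 21.8% were higher. The median difference was −0.77 for the transport genes and 0.00 for all genes compared. When both sides were limited to genes well above background on all 3 arrays, 13 of 34 transport genes were lower (38.2%) and 2 were higher (5.88%). Of all such genes, 21.6% were lower and 17.7% were higher. The medians were then −0.77 and −0.23, a smaller gap. With no detection filter 42.1% of the 38 were lower and 7.89% higher, beside 37.7% and 18.8% of all 21150 genes. The median of all 21150 genes was then −0.51, beside −0.80 for the 38. With normexp background correction, 8 transport genes were lower and 1 was higher, with a median of −0.27, beside 6.92% lower and 12.5% higher of all genes. Of 17 genes past 2-fold that normexp also compared, 9 came within it: Sec16a, Sec16b, Sec23b, Sec24a, Sec24b, Sec31a, Copb1, Kdelr1 and Kdelr2. The 1 higher gene was then Copb2. The Tmed receptor Tmed6, the zeta-COP subunit Copz2, the Sec24d adaptor and Sec13 had the lowest differences among genes measured on both arrays. Sec16a, Sec16b and Sec24b were the 3 that were higher, and none of them stayed past 2-fold with normexp.

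Duct against acinar gave 17 lower genes (45.9%), 4 higher (10.8%) and 16 within 2-fold of 37, with a median of −0.76. Over 13826 named genes, 24.6% were lower, 27.4% were higher and the median was 0.00. Genes well above background on all 3 arrays had 25.2% lower, 24.1% higher and a median of −0.15. The 34 transport genes among them had 44.1% lower, 8.82% higher and a median of −0.73. The split of 17 lower and 4 higher moved with the scaling. When arrays were aligned on their median instead, 13 transport genes were lower and 6 were higher. Of all genes 18.6% were then lower and 34.2% higher, and their median moved to 0.28. With normexp 9 were lower and 6 were higher, beside 10.9% and 20.8% of all genes. The 9 genes that then came within 2-fold or turned in sign were Sec16b, Sec24a, Sec24d, Arcn1, Copg2, Arf4, Tmed3, Tmed4 and Tmed10, and Sec24c and Copb2 passed it. With no detection filter 47.4% of the 38 transport genes were lower and 10.5% higher, beside 41.7% and 22.3% of all 21150 genes. The medians were then −0.86 and −0.60.

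Of 35 genes compared between ADM and duct, 8 were at least 2-fold higher in ADM (22.9%), 4 were lower (11.4%) and 23 lay within 2-fold, with a median of −0.19. The shares over 14475 named genes were 21.6% higher and 24.8% lower, with a median of −0.05. With arrays aligned on their median the transport genes gave 5 higher and 5 lower beside 19.2% higher, 27.9% lower and a median of −0.20 for all genes. With the percentile taken over probes detected on all arrays they gave 8 higher and 2 lower, beside 23.2% and 23.3%. Averaging all probes per gene, 11 of 37 were higher (29.7%, beside 21.5% of all genes) and 4 were lower. With normexp 3 were higher and 3 lower of 36, and Sec13, Sec24b, Arcn1, Copb1, Tmed2, Kdelr2 and Mcfd2 came within 2-fold. The 3 comparisons share arrays, so none of them is independent of the others.

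**Figure D1:**
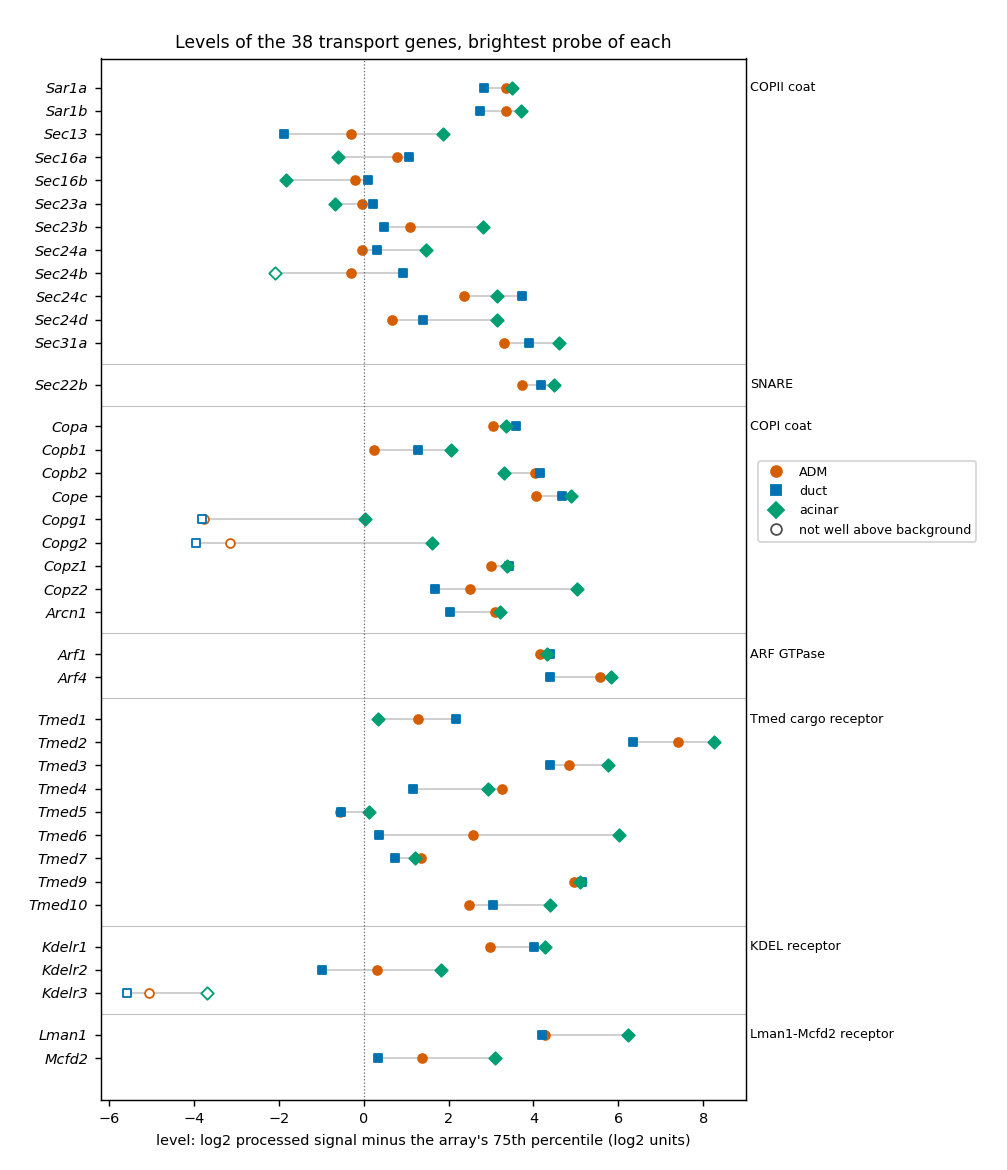
Level of the brightest probe of each transport gene on the ADM, duct and acinar arrays, in log2 units relative to each array's 75th percentile, grouped by role; filled symbols are well above background and points are comparable along a row only. In Tmed6 the ADM point at 2.57 lies between duct at 0.35 and acinar at 6.01, whereas in Arf1 the 3 points lie between 4.16 and 4.39.

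**Figure D2:**
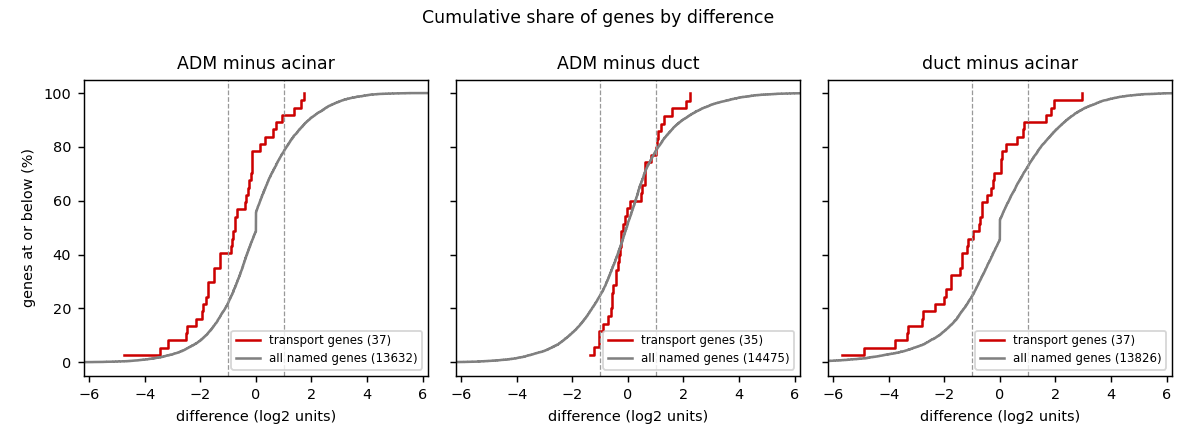
Cumulative share of genes (vertical axis, %) by difference (horizontal axis, log2 units) for the transport genes and all named genes compared; dashed lines mark 2-fold, and the step at 0 in the grey curves is made of bounds that were set to 0. The transport genes lie left of all genes for ADM minus acinar, with medians of −0.77 and 0.00, and near them for ADM minus duct, with medians of −0.19 and −0.05.

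Of the 12 COPII coat genes, 5 were at least 2-fold lower in ADM than in acinar, 3 were higher and 4 lay within 2-fold, beside 22.0% lower and 21.8% higher of all genes. Without Sec24a, whose probes opposed each other, 4 of 11 were lower. Sec24d, a cargo adaptor of the inner coat, had a level of 0.68 in ADM, 1.39 in duct and 3.14 in acinar. It was 5.52-fold lower in ADM than in acinar and 3.37-fold lower in duct than in acinar, while ADM minus duct was −0.71. With normexp duct minus acinar was −0.98, within 2-fold. Its acinar level was above the other two.

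The promoter of Sec24d holds TGACGTG, the core bound by ATF6- and CREB3-type factors of the ER stress response. The letters are printed for 4 transport genes whose match lies whole within the 100 bases before a RefSeq start. They come from build GRCm38.p6 on the gene's own strand, so that the surroundings of the match can be compared. Arf1 also holds such a match and is not printed. Capitals mark the match, which reads CACGTCA where it is on the other strand. Tmed6, the gene with the largest measured differences, is added as a promoter without a match in its 300-base window. The window ran from 250 bases before to 50 after the start.
Sec24d chr3:123267396-123267495 (+): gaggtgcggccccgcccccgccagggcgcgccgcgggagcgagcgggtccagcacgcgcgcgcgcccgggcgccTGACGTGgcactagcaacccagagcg
Sec16b chr1:157506696-157506795 (+): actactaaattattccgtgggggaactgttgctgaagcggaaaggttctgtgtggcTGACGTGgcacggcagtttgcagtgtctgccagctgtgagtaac
Copb1 chr7:114254681-114254780 (−): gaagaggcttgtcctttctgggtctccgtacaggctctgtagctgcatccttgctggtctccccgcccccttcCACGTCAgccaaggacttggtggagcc
Kdelr3 chr15:79516308-79516407 (+): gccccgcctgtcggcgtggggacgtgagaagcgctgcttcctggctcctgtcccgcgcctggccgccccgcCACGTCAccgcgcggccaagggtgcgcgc
Tmed6 chr8:107065645-107065744 (−): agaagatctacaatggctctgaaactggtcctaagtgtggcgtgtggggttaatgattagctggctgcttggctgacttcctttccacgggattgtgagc

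The promoter table held 33 of the 38 genes, and Arcn1, Tmed2, Tmed7, Kdelr2 and Lman1 had no entry. The 33 genes had 38 windows, since Arf1, Sec16b, Sec23b, Sec31a and Tmed1 had 2 starts each. TGACGTG stood on either strand in a window of 7 of the 33 genes (21.2%), Arf1, Copb1, Copb2, Kdelr3, Sec16b, Sec23a and Sec24d. Of all genes in the table, 601 of 27025 (2.22%) held it in a window, as did 237 of 7633 (3.1%) of the genes well above background on all 3 arrays. The match in Sec16b stands before the start shown and not in its other window. The Arf1 windows overlap and both hold the same match. The 7 genes did not share an expression pattern: Sec24d and Copb1 were at least 2-fold lower in ADM than in acinar, Sec16b was higher, Arf1, Copb2 and Sec23a lay within 2-fold, and Kdelr3 was not detected. CATATG, a hexamer of the E-box class, stood in 1 of the genes, Sec31a (3.03%, against 4.48% of all genes in the table). The longer ER stress elements, CCAAT and CCACG with 9 bases between them and ATTGG and CCACG with 1 base between them, stood in 0 of the 33 genes, against 0.137% and 0.0444% of all genes in the table. A match says that the letters are there, not that a factor binds.

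Sec13, which with Sec31 forms the outer cage and is also a nuclear pore protein, had a level of −0.29 in ADM, −1.89 in duct and 1.87 in acinar. ADM lay between the others. It was 4.50-fold lower in ADM than in acinar, 3.02-fold higher in ADM than in duct and 13.6-fold lower in duct than in acinar, and the difference between ADM and duct came within 2-fold with normexp (0.82). Its cage partner Sec31a had a level of 3.32 in ADM, 3.90 in duct and 4.60 in acinar, 2.43-fold lower in ADM than in acinar, but its second probe gave −0.23 for the same comparison.

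Sec23b, the inner-coat GTPase activator whose loss damages the mouse pancreas, had a level of 1.09 in ADM, 0.47 in duct and 2.80 in acinar. It was 3.27-fold lower in ADM than in acinar and 5.02-fold lower in duct than in acinar, the first of which came to −0.99 with normexp. Its paralogue Sec23a differed in sign: its level was −0.05 in ADM, 0.21 in duct and −0.67 in acinar, with a difference of 0.62 for ADM minus acinar, within 2-fold. The 2 paralogues were thus on opposite sides of 0 in this comparison, and whether their differences were unlike beyond error was not tested.

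The other Sec24 adaptors were mixed. Sec24b had a level of −0.31 in ADM and 0.92 in duct, and was not well above background in acinar. ADM exceeded acinar at least 3.33-fold, duct exceeded acinar at least 7.80-fold, and ADM was 2.34-fold lower than duct. These bounds hold for the processed signal: with normexp ADM minus acinar was 0.33, within 2-fold, duct minus acinar was 1.05 and ADM minus duct was −0.73. Sec24c had a level of 2.37 in ADM, 3.74 in duct and 3.13 in acinar, and at 2.59-fold was lower in ADM than in duct. Sec24a is given no direction, because its 3 probes opposed each other: ADM minus acinar was −1.50 by the brightest, at least 3.34 by the second and beyond −5.18 by the third.

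Sec16a and Sec16b, scaffolds of ER exit sites, were the other 2 COPII genes that were higher in ADM than in acinar. Sec16a had a level of 0.78 in ADM, 1.05 in duct and −0.60 in acinar, so that ADM exceeded acinar 2.61-fold and duct exceeded acinar 3.16-fold. Sec16b had a level of −0.21 in ADM, 0.11 in duct and −1.82 in acinar, so that ADM exceeded acinar 3.07-fold and duct exceeded acinar 3.82-fold. With normexp ADM minus acinar came within 2-fold for Sec16a (0.79) and for Sec16b (0.40), as did duct minus acinar for Sec16b (0.55). By the brightest probe ADM lay close to duct in both scaffolds, with ADM minus duct at −0.27 and −0.32. The second Sec16b probe was well above background in ADM alone. It could not set a direction against acinar, and it put ADM minus duct at 0.60 or more.

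The Sar1 GTPases, which start coat assembly, lay within 2-fold in every comparison by their brightest probes. Sar1a had a level of 3.34 in ADM, 2.83 in duct and 3.48 in acinar. Its second probe did not match this, with ADM minus acinar at −1.95 and duct minus acinar at −2.42. Sar1b had a level of 3.35 in ADM, 2.74 in duct and 3.70 in acinar, and its lowest difference was −0.96 for duct minus acinar.

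Of the 9 COPI coat genes, 4 were at least 2-fold lower in ADM than in acinar, 0 were higher and 5 lay within 2-fold, beside 22.0% lower of all genes. Of the 4, 2 were Copg1 and Copg2, whose probes disagree, and without them 2 of 7 were lower. Copz2, the less common zeta subunit, had a level of 2.49 in ADM, 1.68 in duct and 5.02 in acinar. It was 5.77-fold lower in ADM than in acinar and 10.2-fold lower in duct than in acinar, and its second probe gave −2.40 and −5.24. The paralogous subunit Copz1 had levels of 3.00, 3.42 and 3.39 in ADM, duct and acinar, and no difference beyond −0.42.

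Copb1 (beta-COP) had a level of 0.25 in ADM, 1.28 in duct and 2.04 in acinar. It was 3.47-fold lower in ADM than in acinar and 2.05-fold lower in ADM than in duct, so ADM was the lowest array here. With normexp these came to −0.93 and −0.74. Arcn1 (delta-COP) showed another order, with a level of 3.08 in ADM, 2.03 in duct and 3.22 in acinar. It was 2.07-fold higher in ADM than in duct and 2.27-fold lower in duct than in acinar, although its second probe gave 0.53 and −0.94 and normexp 0.84 and −0.51, all within 2-fold.

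Copa, Copb2 and Cope lay within 2-fold in all 3 comparisons at the settings used here, but Copb2 passed it with normexp (1.11 for ADM minus acinar and 1.34 for duct minus acinar) and with median scaling (1.23 for duct minus acinar). Copa (alpha-COP) was measured by 10 spots per array and had a level of 3.06 ± 0.0547 in ADM, 3.59 ± 0.0432 in duct and 3.35 ± 0.0333 in acinar (SD over spots of one array, which is technical). ADM minus acinar was −0.29 by this probe and 0.19 by the second. Copb2 (beta-prime-COP) had levels of 4.04, 4.16 and 3.32 in ADM, duct and acinar, and Cope (epsilon-COP) had 4.06, 4.68 and 4.90, all within 2-fold of each other.

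The gamma-COP genes Copg1 and Copg2 cannot be given a direction from these arrays. The brightest probe of each was well above background on acinar alone, which put ADM minus acinar beyond −3.18 for Copg1 and −4.77 for Copg2. The second Copg1 probe was above background on ADM alone and put the same difference at 1.30 or more. The second Copg2 probe was above background on duct alone, with duct minus acinar at least 3.94 against a value beyond −4.89 by the brightest. Without these 2 genes and Sec24a, 12 of 34 genes were at least 2-fold lower in ADM than in acinar and 3 were higher (median −0.72), and 14 of 34 were lower in duct than in acinar with 4 higher (median −0.68).

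Of the ARF GTPases, Arf1, the main recruiter of COPI, had a level of 4.16 in ADM, 4.39 in duct and 4.32 in acinar, with no difference beyond −0.24. Arf4, which also acts at the early Golgi, had a level of 5.57 in ADM, 4.39 in duct and 5.82 in acinar. The duct array was the low one. Arf4 was 2.27-fold higher in ADM than in duct and 2.70-fold lower in duct than in acinar, and its second probe gave 1.36 and −2.02. With normexp duct minus acinar was −0.75, within 2-fold.

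Among the 9 Tmed receptors, 5 were at least 2-fold lower in duct than in acinar and 1 was higher, with a median of −1.35, whereas 2 were lower in ADM than in acinar and 7 lay within 2-fold, with a median of −0.69. In ADM against duct, 3 were higher and 0 were lower, with a median of 0.47. For comparison, the 12 COPII genes had medians of −0.68, −0.56 and −0.29 in the same comparisons. Of all named genes compared, 24.6% were lower and 27.4% higher in duct than in acinar. For ADM against acinar 22.0% were lower, near the Tmed share of 22.2%, and 21.8% were higher. For ADM against duct 21.6% were higher and 24.8% were lower.

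Tmed6, a gamma-subfamily member, had the largest measured differences of all 38 genes. Its level was 2.57 in ADM, 0.35 in duct and 6.01 in acinar, and the intensities before scaling were 428, 122 and 2280. ADM was intermediate: 10.9-fold lower than acinar and 4.66-fold higher than duct, with duct 50.8-fold lower than acinar. The second probe had levels of 0.16 in ADM, −1.32 in duct and 3.41 in acinar, in the same order.

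Tmed2 and Tmed10 are the beta and delta members that pair in the core p24 complex. Tmed2 had a level of 7.42 in ADM, 6.34 in duct and 8.27 in acinar, 2.12-fold higher in ADM than in duct and 3.80-fold lower in duct than in acinar. Tmed10 had a level of 2.49 in ADM, 3.05 in duct and 4.40 in acinar, 3.76-fold lower in ADM than in acinar and 2.54-fold lower in duct than in acinar. The partners differed in which array was lowest, duct for Tmed2 and ADM for Tmed10. Second probes gave −0.76 for Tmed2 and −1.20 for Tmed10 in ADM minus acinar. The Tmed2 difference between ADM and duct came just within 2-fold by the second probe (0.98), normexp (0.91) and median scaling (0.92). The Tmed10 difference between duct and acinar came within it by the second probe (−0.48), the mean of probes (−0.91), normexp (−0.63) and median scaling (−0.96).

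Of the alpha members, Tmed4 had a level of 3.27 in ADM, 1.16 in duct and 2.94 in acinar, so that ADM and acinar lay close together at 0.33, ADM was 4.29-fold higher than duct, and duct was 3.42-fold lower than acinar (−0.93 with normexp). Tmed9 had levels of 4.96, 5.14 and 5.09 in ADM, duct and acinar, and the largest difference by its brightest probe was −0.19. Of the gamma members, Tmed3 had a level of 4.85 in ADM, 4.38 in duct and 5.75 in acinar and was 2.58-fold lower in duct than in acinar, which came within 2-fold with normexp (−0.66) and median scaling (−0.98).

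Tmed1, known as a partner of an interleukin receptor of the IL-1 family, ran the other way, with a level of 1.28 in ADM, 2.18 in duct and 0.33 in acinar. It was 3.60-fold higher in duct than in acinar, and ADM lay between them with differences of 0.95 and −0.90. Tmed5 and Tmed7 lay within 2-fold in every comparison by their brightest probes, and the lowest of these differences was −0.69, for Tmed5 in ADM minus acinar. The second Tmed5 probe gave −1.05 there.

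Retrieval receptors were lower in ADM than in acinar where they were measured. Kdelr2 had a level of 0.31 in ADM, −0.99 in duct and 1.82 in acinar, again with ADM between the others. It was 2.84-fold lower in ADM than in acinar, 2.45-fold higher in ADM than in duct and 6.98-fold lower in duct than in acinar. With normexp the first came to −0.76 and the second to 0.64. Kdelr1 had a level of 2.98 in ADM, 4.02 in duct and 4.27 in acinar, and both probes put ADM below acinar, by −1.29 and −1.63, although normexp gave −0.71. Its probes did not settle the duct level, since ADM minus duct was −1.03 by one and 0.26 by the other.

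The cargo receptor Lman1 (ERGIC-53) and its soluble partner Mcfd2, which together export clotting factors and other glycoproteins, were both lower in ADM and in duct than in acinar. Lman1 had a level of 4.28 in ADM, 4.20 in duct and 6.23 in acinar, 3.86-fold lower in ADM than in acinar and 4.08-fold lower in duct than in acinar. Mcfd2 had a level of 1.37 in ADM, 0.34 in duct and 3.10 in acinar, 3.32-fold lower in ADM than in acinar and 6.77-fold lower in duct than in acinar. The second Lman1 probe gave −2.66 and −3.59. The SNARE Sec22b, which acts in ER-Golgi fusion, had levels of 3.73, 4.17 and 4.49 in ADM, duct and acinar, within 2-fold throughout.

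**Figure D3:**
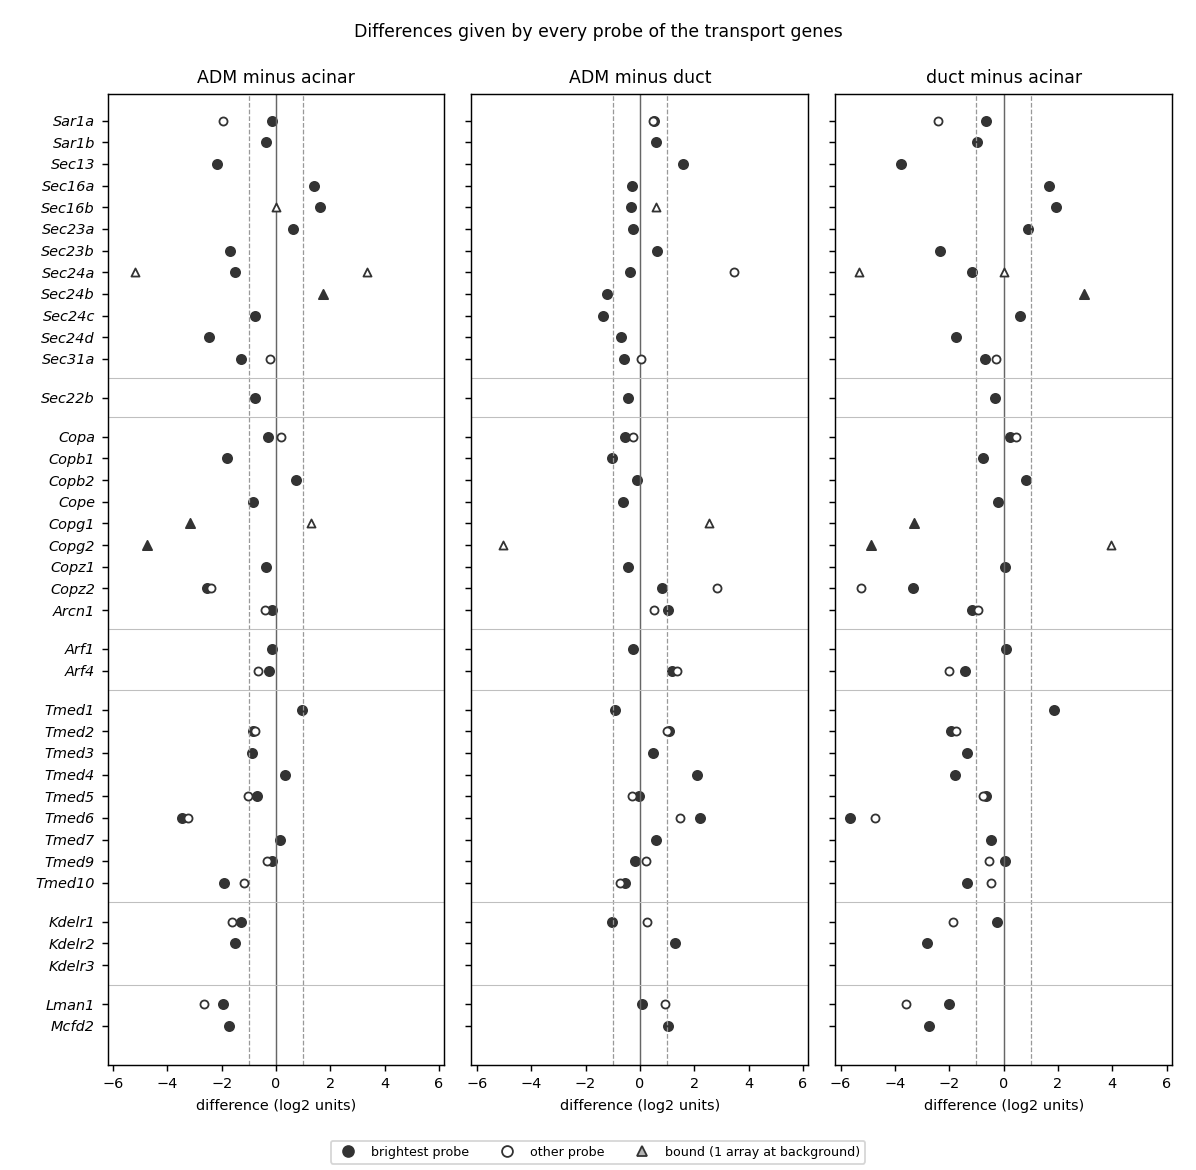
Difference in log2 units given by each probe of the transport genes in the 3 comparisons; filled symbols are the brightest probe, open symbols other probes, triangles bounds, and dashed lines 2-fold. The probes of Tmed6 and Copz2 fall together for ADM minus acinar (−3.45 and −3.25, −2.53 and −2.40), whereas those of Sec24a and Copg1 fall on both sides of 0.

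Second probes gave a further reading of the same RNA, though not a replicate. For ADM minus acinar, 16 genes had more than 1 compared probe, 12 of them had all probes on one side of 0, and of 9 that were past 2-fold by the brightest probe, 5 had every probe past it in the same direction. For ADM minus duct the counts were 15, 10, 5 and 2. For duct minus acinar they were 15, 12, 9 and 5.

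Related genes of the same route were counted from lists of textbook members. Of 9 further COPII factors, 4 were at least 2-fold lower in ADM than in acinar and 1 was higher, with a median of −0.90. All genes compared had 22.0% lower and 21.8% higher. The brightest probe of Preb, the exchange factor that loads Sar1, had a level of 2.88 in ADM, 1.65 in duct and 4.59 in acinar. Its 3 probes ranged between −1.70 and −0.05 for ADM minus acinar and between −2.94 and −0.19 for duct minus acinar, so the size of its difference is not settled. Klhl12, a ubiquitin ligase adaptor for large COPII coats, differed by −2.06, and Pdcd6, a calcium-dependent partner of Sec31a, by 1.38. In duct against acinar 3 were lower and 4 were higher, with Pef1, the partner of Pdcd6, at 2.18, beside 24.6% lower and 27.4% higher of all genes. In ADM against duct 4 were lower and 2 were higher, beside 24.8% and 21.6% of all genes. The same shares apply to the other lists.

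Of 16 other cargo receptors compared between ADM and acinar, 3 were lower, 3 were higher and 10 lay within 2-fold, with a median of −0.05. Among them, Ergic1 differed by −2.86, the Tmed gene Tmed11 by −2.68 and the lectin Lman2 by −1.72, while Lman2l differed by 2.92 and Bcap29 by 1.53. In ADM against duct 4 were higher and 1 was lower. In duct against acinar 4 were higher and 5 lower of 15.

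The list drawn up for cargo of the KDEL receptors had the lowest medians of the 7 related lists against acinar. Whether each protein on it carries a KDEL-type signal was not checked. Of its 14 ER proteins, 9 were at least 2-fold lower in ADM than in acinar and 0 were higher (median −1.84). In duct 13 were lower than in acinar (median −2.34). The chaperone Hyou1 differed by −3.69 and the pancreatic disulphide isomerase Pdia2 by −3.06 for ADM minus acinar. In ADM against duct 5 were higher and 1 was lower, with Sdf2l1 at 2.64 and Manf at 2.56.

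The list of transcription factors of the secretory programme also holds Ern1, an ER stress sensor that is not a transcription factor. Its genes were mostly within 2-fold between ADM and acinar, with 2 of 9 lower, 1 higher and 6 within, among them Ern1 (−0.09). Bhlha15 (Mist1), the acinar secretory factor that is also on the acinar marker list, differed by −2.58 and Creb3l1 by −1.94. Atf4, an effector of the unfolded protein response, differed by −0.95. In duct against acinar 4 of 10 genes of this list were lower, Ern1 (−3.95) among them, and 2 were higher.

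**Figure D4:**
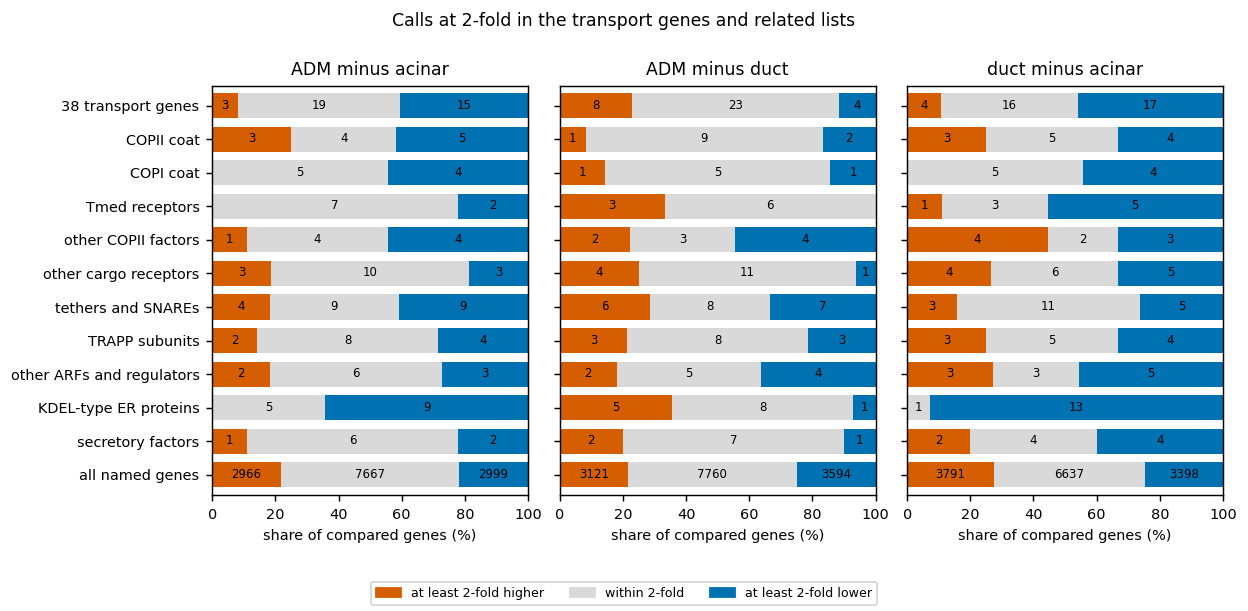
Share of compared genes (horizontal axis, %) that were at least 2-fold higher, within 2-fold or at least 2-fold lower, for the transport genes, their largest roles, related lists and all named genes; numbers in the bars are genes. For ADM minus acinar the transport genes show 15 lower of 37 and the KDEL-type ER proteins 9 lower of 14, beside 2999 lower of 13632 named genes.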

How the data were processed

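Per the labels' protocols, total RNA of microdissected cells was column-purified, amplified by a whole-transcriptome kit and labelled with Cy3. The deposited scanner tables give linear intensity for each spot. Per the file headers, the authors' scanner software (Agilent Feature Extraction 11.5.1.1) had subtracted background and removed the spatial trend, with no scaling between arrays. The deposited value table holds log2 values of 32939 probes, each equal, within 0.001 in 32905 probes, to the log2 processed signal plus an array constant (ADM −6.17, duct −6.58, acinar −5.13), so it is uncentred and unturned. Its column medians were −0.56, −0.63 and −0.57, and how its probes were filtered is not stated in the sources used here. The arrays shared a slide and a scan, per the file headers.

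Of 62976 spots per array, 3671 controls and 110 to 117 outlier spots were left out, log2 signals of repeated spots were averaged, and each array's 75th percentile over 55664 probes was subtracted. No spot was saturated among those kept. RefSeq accessions named 28020 probes through a gene table of assembly GRCm38.p6, and 27644 stayed unnamed. The probes were annotated on mm9, so the table gave probe names alone. The probe brightest on average over the 3 arrays stood for a gene. A comparison needed the probe to be well above background on either array. An undetected side took the lowest detected signal of that array, or its own signal if higher, which makes the difference a bound. Bounds that crossed 0 were given as 0. The rest was Python 3.11.15 and, for the normexp alternative, limma 3.58.1 in R 4.3.3. The code was tested on simulated data.

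Alternatives were normexp background correction (on median spot intensity, since the deposited tables used here hold no mean signal), scaling on the median or on probes detected on all arrays, stricter and no detection filters, other ways of choosing the probe, and the value table. The transport genes and lists were chosen with earlier results of these data known. All 38 genes could be named. From the related lists, genes came from the 4 largest absolute differences per comparison among those well above background on both arrays, then from bounds (Gbf1). Promoters are RefSeq sequences.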

Additional observations from a re-analysis of the deposited data

How the results depend on the processing

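Under 8 alternatives, 801 differences of single transport genes were recomputed. Of these, 728 stayed on their side of 2-fold, 47 came within it and 20 passed it. Sign changed in 39, of which 6 had been past 2-fold and 33 within it. Of the 39, 15 changed with normexp, 10 with the second-brightest probe and 8 with median scaling. Among the 728, 109 came from dropping the detection filter, 109 from the deposited values and 102 from the stricter filter. Apart from bounds, these settings repeat the same differences or shift them by a near-zero constant. They could therefore not test stability, here or in the counts of genes that follow. With normexp 80 differences stayed and 24 came within 2-fold. With the second-brightest probe 29 stayed and 7 came within it. Genes past 2-fold that kept it under every alternative that gave a value numbered 8 of 18 for ADM minus acinar (all lower), 4 of 12 for ADM minus duct (3 higher, 1 lower) and 12 of 21 for duct minus acinar (3 higher, 9 lower). The 8 were Sec13, Sec24d, Copg2, Copz2, Tmed6, Tmed10, Lman1 and Mcfd2, and neither normexp nor the second Copg2 probe gave a value there. The 9 lower for duct minus acinar include Copg1, whose second probe gave no value in that comparison. Copg1 and Copg2 are still given no direction. With normexp, which compresses low signals by its offset of 50, 1 gene was higher and 8 lower for ADM minus acinar, 3 were higher for ADM minus duct, and 9 were lower for duct minus acinar. The share of all named genes past 2-fold fell too, to 12.5% higher and 6.92% lower for ADM minus acinar, against 21.8% and 22.0%. ADM minus duct had 5 higher with median scaling and 2 lower with the percentile over probes detected on all arrays. With the second-brightest probe, which fewer genes have (16 for ADM minus acinar, 17 for ADM minus duct and 15 for duct minus acinar), 7 were lower for ADM minus acinar, 5 were higher and 1 lower for ADM minus duct with a median of 0.53, and 1 was higher and 7 lower for duct minus acinar. The mean of probes gave a median of 0.0113 for ADM minus duct. Past 2-fold, signs turned for Copg2 in duct minus acinar (normexp 2.06, mean of probes 0.29, second probe 3.94), and with the second probe for Sec24a (3.34) and Copg1 (1.30) in ADM minus acinar and Kdelr1 (0.26) in ADM minus duct. Other causes were not tested. With median scaling the transport genes had a median of −0.66 relative to that of all genes for duct minus acinar. The analysis without Sec24a, Copg1 and Copg2 was chosen after seeing the data. No paired analysis was possible because each group had 1 array, and no replicate could be left out. Low signal limits Copg1, Copg2, Sec24b and Kdelr3. It also limits Sec16b against acinar, where its level of −1.82 was close to the lowest detected level of −2.04.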

Other observations

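Tethers, TRAPP subunits and ARF regulators act around the same vesicles. Of 22 tethers and SNAREs compared between ADM and acinar, 9 were at least 2-fold lower and 4 were higher, with a median of −0.46. Scfd1, which binds the Golgi syntaxin, differed by −1.81 and Rint1, a tether of Golgi-to-ER vesicles, by −2.11, while the GTPase Rab2b differed by 2.16. Of 14 TRAPP subunits, 4 were lower and 2 higher, with Trappc9 at −2.87 and Trappc4 at 2.85. Of 11 ARF genes and regulators, 3 were lower and 2 higher. Over all named genes 22.0% were lower and 21.8% higher, and the TRAPP and ARF counts lie near these shares. The exchange factor Gbf1, which activates ARF for COPI, was not well above background in ADM, with ADM minus acinar beyond −4.93.

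In duct against acinar, 5 of 19 tethers and SNAREs were lower and 3 higher, with the SNARE Ykt6 at −3.15, beside 24.6% lower and 27.4% higher of all named genes. Ykt6 was also 1.85 higher on the log2 scale in ADM than in duct, and Golga2, a Golgi tether, was lower there at −2.22.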
